A study of Mus musculus with 19 samples.

Results

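The cytosolic ribosomal protein genes of mouse embryonic stem cells (ESCs) were followed through 8 groups of RNA-seq libraries. A gene was taken in where its symbol is Rpl or Rps followed by a digit, or is Rplp0, Rplp1, Rplp2 or Rpsa, and the S6 kinases (Rps6k), Rps19bp1 and symbols ending in a pseudogene tag (-ps) were left out. This gave 84 of the 12942 genes listed, 51 of the large (60S) and 33 of the small (40S) subunit. All 84 passed the filter on low values, with mean levels of 10.9 to 1280 CPM, the reads of a gene relative to a fixed library total. Among them are 7 paralogs, further gene copies of a ribosomal protein: Rpl7l1, Rpl10l, Rpl22l1, Rpl36al, Rpl39l, Rps4y2 and Rps27l.

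Male ESC lines, named J-34, J-35 and (the third) J-37, went into different media at passage 4, each held on feeder layers of mouse embryonic fibroblasts and sorted for the surface antigen SSEA1 before RNA extraction. At passage 10, after 6 passages, there were 2 libraries each of 2i/L (J-34, J-35), a2i/L (J-34, J-35), PKCi/L (J-34, J-37) and S/L (J-34, J-35), and S/L+PD (J-34, J-37) was taken at passage 7 after 3 passages. The later libraries, 3 per group with 1 from each line, were 2i/L at passage 20 after 16 passages, cells taken out of 2i/L and put back into S/L for 3 more passages (passage 23, "the return"), and S/L at passage 20. In both PKCi/L and S/L+PD, 1 library is J-37 by title but J-35 by its generation label. If the titles hold, comparisons of these media at passages 7 and 10 also differ in line. Media names are used as labelled. As background, S/L is the usual name for serum with the cytokine LIF, 2i for inhibitors of the kinases Mek1/2 and Gsk3, and PD for the Mek inhibitor of that pair. A form of 2i known as a2i has a Src inhibitor in place of the Mek inhibitor.

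The cytosolic ribosome translates all nuclear-encoded mRNA, and its proteins are made in nearly equal amounts, 1 copy of most per ribosome. Their mRNAs are among the most abundant of a dividing cell, and many begin with a run of pyrimidines through which mTOR signalling and the RNA-binding protein Larp1 control their translation. Paralogs are the known exceptions to this uniformity: in the mouse, Rpl10l and Rpl39l are best known from male germ cells, where they stand in for the X-linked Rpl10 and Rpl39.

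The libraries formed 2 sets, whatever the medium. In the 10 libraries of passages 7 and 10 the genes listed summed to 421426 to 465897 CPM and Lars2, a mitochondrial leucyl-tRNA synthetase, had 56.9 to 3797 CPM. In the 9 libraries of passages 20 and 23 the sums were 292986 to 396883 CPM and Lars2 had 14870 to 29550 CPM. Passage and library set cannot be told apart, so no level is tested across them. Steps between low CPM values put the depth at 33.9 to 45.4 M reads in the early libraries, and at 57.2 M (J-34 S/L) and 49.6 M (J-35 2i/L) in those of the passage 20 ones where it could be read. Markers of ESCs were detected in all libraries, and 15 fibroblast markers of the feeder layer were measured too. Because the CPM share one total with whatever else was sequenced, results are given on the CPM as deposited and after TMM scaling, which sets each library by the trimmed mean of its log ratios (factors of 0.965 to 1.17 in the early and 0.666 to 1.09 in the late set).

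Ribosomal protein mRNA made up 5.78% to 9.16% of the CPM listed per library, and within each library set its mean share was lowest in 2i/L. At passage 10 the share was 7.03% and 6.91% in 2i/L, against 7.24% and 7.92% in S/L. At passage 20 it was 6.05%, 5.78% and 6.01% in 2i/L, against 6.84%, 6.38% and 7.68% in S/L. The 2i/L and S/L libraries did not overlap at either passage. Cells returned to S/L stood at 6.87%, 6.44% and 6.41%, above every 2i/L library of passage 20 and within the range of the S/L ones. The low end of that range, 6.38%, is J-35 S/L, where Lars2 made 29550 of the 292986 CPM listed. Lars2 thus lowers the share there, and shares without it were not taken. Away from 2i/L the shares spread widely: a2i/L had 8.46% and 7.46%, PKCi/L 7.85% and 9.16%, and S/L+PD 7.02% and 7.94%, the last spanning the whole S/L range.

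After TMM scaling the mean summed level was again lowest in 2i/L within each library set. It was 22127 ± 545 scaled CPM in 2i/L at passage 20, 25851 ± 452 in the return and 29394 ± 2030 in S/L at passage 20 (SD, n = 3 each), and no library of one group reached the range of another. In the early set it was 27762 ± 209 in 2i/L, 33220 ± 3398 in a2i/L, 36793 ± 4546 in PKCi/L and 30246 ± 2863 in S/L+PD, against 29633 ± 2124 in S/L (SD, n = 2 each). On the deposited CPM the late groups overlapped: 22075, 21347 and 23859 CPM in 2i/L lay inside the 18707 to 27110 CPM of S/L. In bulk RNA, fewer cells rich in these mRNAs and less of them per cell cannot be told apart. No test was made on the sums, since genes are not replicates.

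**Figure D1:**
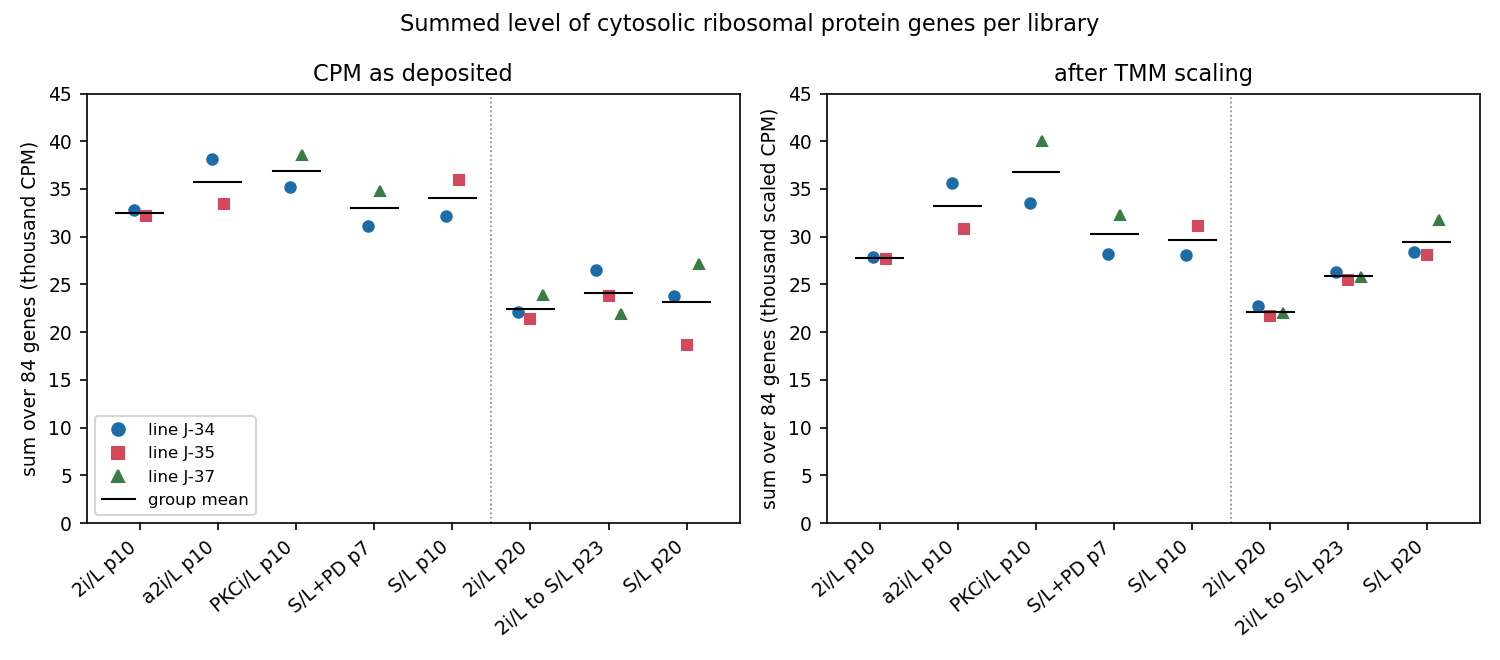
Summed level of the 84 ribosomal protein genes per library, in 1000 CPM as deposited (left) and after TMM scaling (right), by group, with symbols for the lines, a bar at the group mean and a dotted line between the library sets. After scaling, the 2i/L libraries of passage 20 lie below the return and these below S/L, while on the deposited CPM the 3 late groups overlap.

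Within each library set the large and the small subunit kept close step, but their ratio differed between the sets. The summed CPM of the 60S genes was 1.15 to 1.21 times that of the 40S genes in the early libraries and 1.25 to 1.29 times in the late ones, with no overlap between the sets. Relative to the median ribosomal protein gene of each library, 61 of the 84 genes had an SD over the 19 libraries under 0.2 on the log2 scale. The steadiest were Rps15 (SD 0.059) and Rps19 (0.059), a gene mutated in Diamond-Blackfan anaemia, followed by Rpl34, Rps13 and Rpl13a. At the other end stood 3 paralogs over 0.4: Rpl39l (1.44), Rpl10l (1.01) and Rps4y2 (0.43). Rpl7, of the 60S, stood at 0.33, and the remaining 4 paralogs lay among the ordinary genes. After TMM scaling the median SD of the 84 genes was 0.245, against 0.298 for the 6797 genes that average 10 CPM or more.

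**Figure D2:**
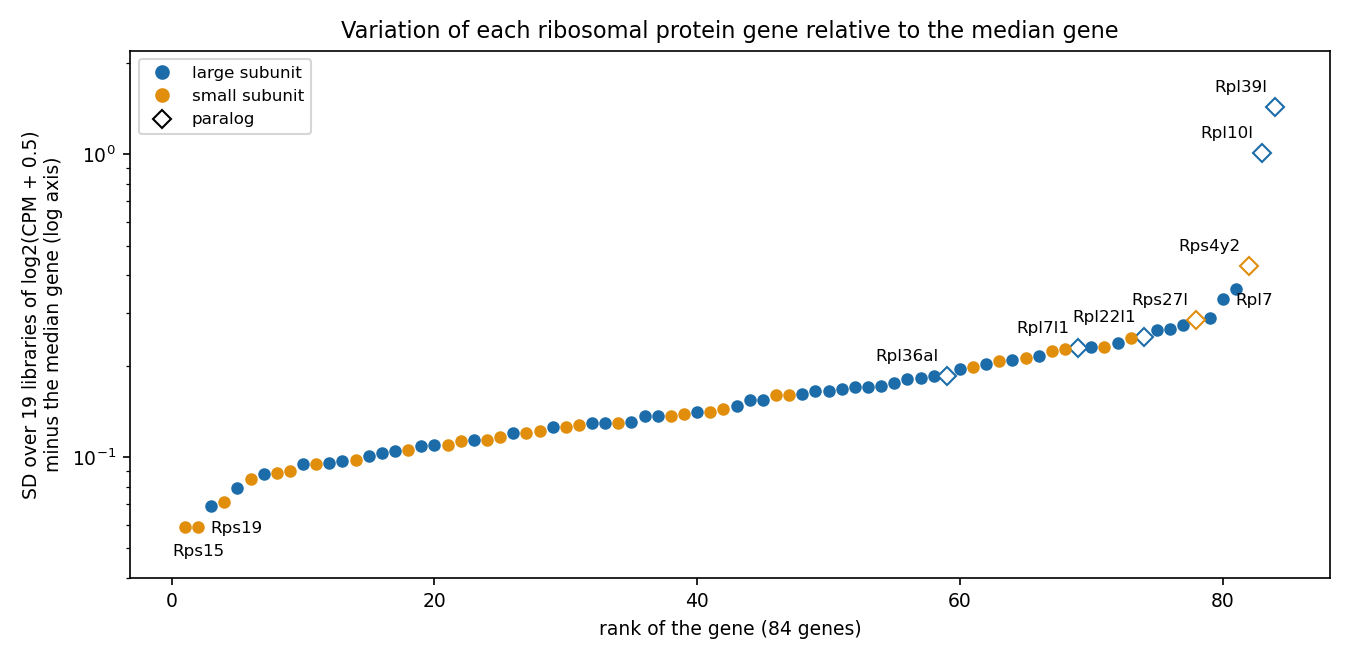
SD over 19 libraries of each gene's log2(CPM + 0.5) minus that of the median ribosomal protein gene (log axis), genes ranked by it, with subunits in colour and paralogs as open diamonds. Most genes lie under 0.2, and Rpl39l and Rpl10l stand apart at 1.44 and 1.01.

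Promoters were read for what the genes share outside the measurements, and windows are shown for the 5 steadiest genes and for the 2 most variable paralogs with their parents. RefSeq promoters (GRCm38.p6) were at hand for 63 of the 84 genes and 8951 of all listed genes. Unbroken runs of C and T were read on the gene's strand from 20 bases before the annotated start, and had to begin within 20 bases of it. A run that crosses the upstream edge is cut there. Where a gene had several promoters, the longest run was taken, and a motif in any of them counted. The number of promoters per gene was not compared between the sets. The longest run reached 8 bases in 50.8% of the ribosomal protein genes, against 21.2% of all. In the 300-base window on either strand, CCGGAA, the core of ETS-factor motifs, was present in 55.6% against 31.1%, AAGATGGC, a YY1 core, in 9.5% against 5.2%, and TATAAA in 11.1% against 8.5%. Such matches describe the letters only. In the windows below, 40 bases before and 20 bases from the start, capitals mark that run.
Rps15, chr10:80292391-80292450, plus strand: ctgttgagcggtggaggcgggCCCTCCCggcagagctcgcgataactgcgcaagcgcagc
Rps19, chr7:24884873-24884932, plus strand: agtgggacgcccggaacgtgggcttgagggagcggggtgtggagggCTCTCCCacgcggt
Rpl34, chr3:130730318-130730377, minus strand: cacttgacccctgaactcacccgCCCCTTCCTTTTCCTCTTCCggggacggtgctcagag
Rps13, chr7:116334171-116334230, minus strand: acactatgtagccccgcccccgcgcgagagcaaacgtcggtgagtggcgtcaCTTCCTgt
Rpl13a, chr7:45128726-45128785, minus strand: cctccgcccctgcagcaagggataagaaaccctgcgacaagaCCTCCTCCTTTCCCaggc
Rpl39l, chr16:10170188-10170247, plus strand: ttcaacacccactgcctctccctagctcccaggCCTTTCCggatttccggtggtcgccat
Rpl39, chrX:37085203-37085262, minus strand: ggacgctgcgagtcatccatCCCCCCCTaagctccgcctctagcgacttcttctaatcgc
Rpl10l, chr12:66284382-66284441, minus strand: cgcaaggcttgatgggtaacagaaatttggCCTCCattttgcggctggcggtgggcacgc
Rpl10, chrX:74270776-74270835, plus strand: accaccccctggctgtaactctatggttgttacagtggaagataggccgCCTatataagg
The run spans 20 bases in Rpl34, 14 in Rpl13a, 7 in Rps15, 7 in Rps19 and 6 in Rps13. In the paralogs it spans 7 bases in Rpl39l, beside 8 in Rpl39, and 5 in Rpl10l, beside 3 in Rpl10. The run of Rpl39 is cut at the upstream edge, since the base before its capitals is also a pyrimidine. The steady genes thus lay on both sides of 8 bases, and 3 of the 5 had a run no longer than that of Rpl39l.

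Rpl39l, an autosomal paralog of the small exit-tunnel protein Rpl39, changed most of all 84 genes. Its coding sequence is as long as that of Rpl39, 156 bases including the stop codon, and the pair is shown because reads of so short a gene could be shared: 23 bases differ (85.3% identity) and the longest identical stretch is 38 bases. Capitals mark the bases that differ between the 2 coding sequences, taken from the reference transcripts (GRCm38).
Rpl39l, chromosome 16: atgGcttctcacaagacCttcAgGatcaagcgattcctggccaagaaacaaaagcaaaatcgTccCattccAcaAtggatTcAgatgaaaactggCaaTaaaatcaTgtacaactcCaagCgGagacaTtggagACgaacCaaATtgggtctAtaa
Rpl39, chromosome X: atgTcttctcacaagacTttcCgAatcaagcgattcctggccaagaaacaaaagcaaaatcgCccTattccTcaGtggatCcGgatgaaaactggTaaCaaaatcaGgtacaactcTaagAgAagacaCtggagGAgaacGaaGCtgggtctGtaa
How reads that fit both were counted is not given in the sources used here. Rpl39 itself had no call in any comparison. It ranged from 83.9 to 192 CPM over the libraries, while Rpl39l reached at most 42.1 CPM. A shift of shared reads of that size might not be called in Rpl39, and sharing was not tested.

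At passage 10, Rpl39l had 42.1 and 41.5 CPM in 2i/L, against 4.09 and 4.94 CPM in S/L. S/L+PD reached 31.5 and 26.3 CPM, while a2i/L (2.59 and 4.03 CPM) and PKCi/L (5.33 and 3.95 CPM) stayed near the S/L level. The high libraries of the early set were thus those of 2i/L and S/L+PD. By common usage both media hold the Mek inhibitor, but its part in these levels was not tested. Fold changes are of log2(CPM + 0.5), which understates those of low genes, and a gene is called at an adjusted p under 0.05 over all genes (limma's linear model). The rise was 3.08 ± 0.21 on the log2 scale in 2i/L over S/L (8.47-fold on CPM + 0.5; limma, SE, adjusted p = 2.02e-14) and 2.55 ± 0.21 in S/L+PD (adjusted p = 3.46e-12). Against 2i/L, Rpl39l fell by 3.5 ± 0.21 in a2i/L (limma adjusted p = 2.2e-15) and by 3.05 ± 0.21 in PKCi/L (adjusted p = 1.67e-14). As a share of Rpl39 its CPM were 28.7% and 28.1% in 2i/L and 22.3% and 13.7% in S/L+PD, against 3.03% and 3.12% in S/L.

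By passage 20 the gap had narrowed. Rpl39l had 6.69, 7.09 and 8.90 CPM in 2i/L, against 4.72, 3.89 and 6.28 CPM in S/L, close to touching. The called rise of 0.57 ± 0.17 (limma adjusted p = 0.0045) was 0.23 ± 0.14 after TMM scaling and not called (adjusted p = 0.164). The change in the 2i/L effect between the passages, tested as an interaction, was -2.51 ± 0.27 (limma adjusted p = 1.07e-08). In the return Rpl39l went below both: 1.33, 0.93 and 1.14 CPM, under every other library of the series. It was 1.73 ± 0.17 lower than in S/L at passage 20 on the log2 scale (limma log2 fold change -1.73, adjusted p = 7.94e-10) and fell by 2.3 ± 0.17 relative to 2i/L at passage 20 (adjusted p = 1.6e-13).

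Rpl10l, a paralog of Rpl10 at the subunit-joining face of the 60S, followed in part. It is a gene without introns on chromosome 12, and its 645-base coding sequence is 84.8% identical to that of the X-linked Rpl10. At passage 10 it had 74.8 and 76.5 CPM in 2i/L, against 13.5 and 13.9 CPM in S/L, a rise of 2.42 ± 0.20 (limma adjusted p = 3.28e-12). In S/L+PD it had 18.9 and 15.1 CPM, above S/L in both libraries but not called (limma log2 fold change 0.29, adjusted p = 0.273). Whether the 2i/L and S/L+PD effects differ for this gene was not tested. a2i/L (9.35 and 16.1 CPM) and PKCi/L (11.3 and 9.51 CPM) lay around the S/L level, with log2 fold changes against 2i/L of -2.57 ± 0.20 (limma adjusted p = 1.46e-12) and -2.81 ± 0.20 (adjusted p = 4.88e-14).

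The late values of Rpl10l were 20.7, 28.1 and 31.4 CPM in 2i/L at passage 20, 9.02, 8.13 and 5.82 CPM in the return, and 14.0, 16.1 and 17.0 CPM in S/L. No late group overlapped another. The rise in 2i/L was 0.74 ± 0.17 (limma adjusted p = 0.000249; after TMM scaling 0.37 ± 0.16, adjusted p = 0.0491), and the return was lower than S/L by 1.0 ± 0.17 (limma log2 fold change -1.0, adjusted p = 9.02e-06). Its 2i/L effect was also smaller at passage 20, with an interaction of -1.69 ± 0.26 (limma adjusted p = 5.33e-06). Beside Rpl10 its CPM made 27.1% and 26.6% in 2i/L at passage 10, against 5.34% and 4.24% in S/L, and 10.1% to 14.1% in 2i/L at passage 20, against 6.46% to 8.55% in S/L.

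The summed fibroblast markers of the feeder layer also differed between these groups. The 15 measured fibroblast markers summed to 1212 and 1395 CPM in 2i/L at passage 10, 912.9 and 1133 CPM in a2i/L, 907 and 944.8 CPM in PKCi/L and 3185 and 2313 CPM in S/L+PD, against 600.6 and 575.9 CPM in S/L at passage 10. They summed to 877.2 to 1070 CPM in 2i/L at passage 20 and 247.9 to 323.8 CPM in the return, against 355.9 to 415.6 CPM in S/L at passage 20. All 15 were called higher in S/L+PD than in S/L on the deposited CPM, against 16.4% of all genes. Over the same S/L libraries 10 were higher and 3 lower in 2i/L at passage 10, against 22.7% and 17.5% of all genes. In a2i/L 2 were higher and 5 lower (10.7% and 17.3% of all genes), and in PKCi/L 3 and 6 (5.8% and 23.5%). The sums of a2i/L and PKCi/L were thus above S/L while more markers were called lower than higher. In 2i/L over S/L at passage 20, 9 were higher and 5 lower (50% and 12.3% of all genes), and in the return over S/L 1 was higher and 5 lower (32.7% and 6.63%). The sum is weighted to its most abundant genes: Fn1 had 119.3 to 1235 CPM and Vim 34.92 to 255.7 CPM over the libraries. Each of the other markers went down to 1.06 CPM or less in some library, and S100a4, Dcn and Acta2 reached 0. The part of feeder RNA in the changes of Rpl39l and Rpl10l was not tested.

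**Figure D3:**
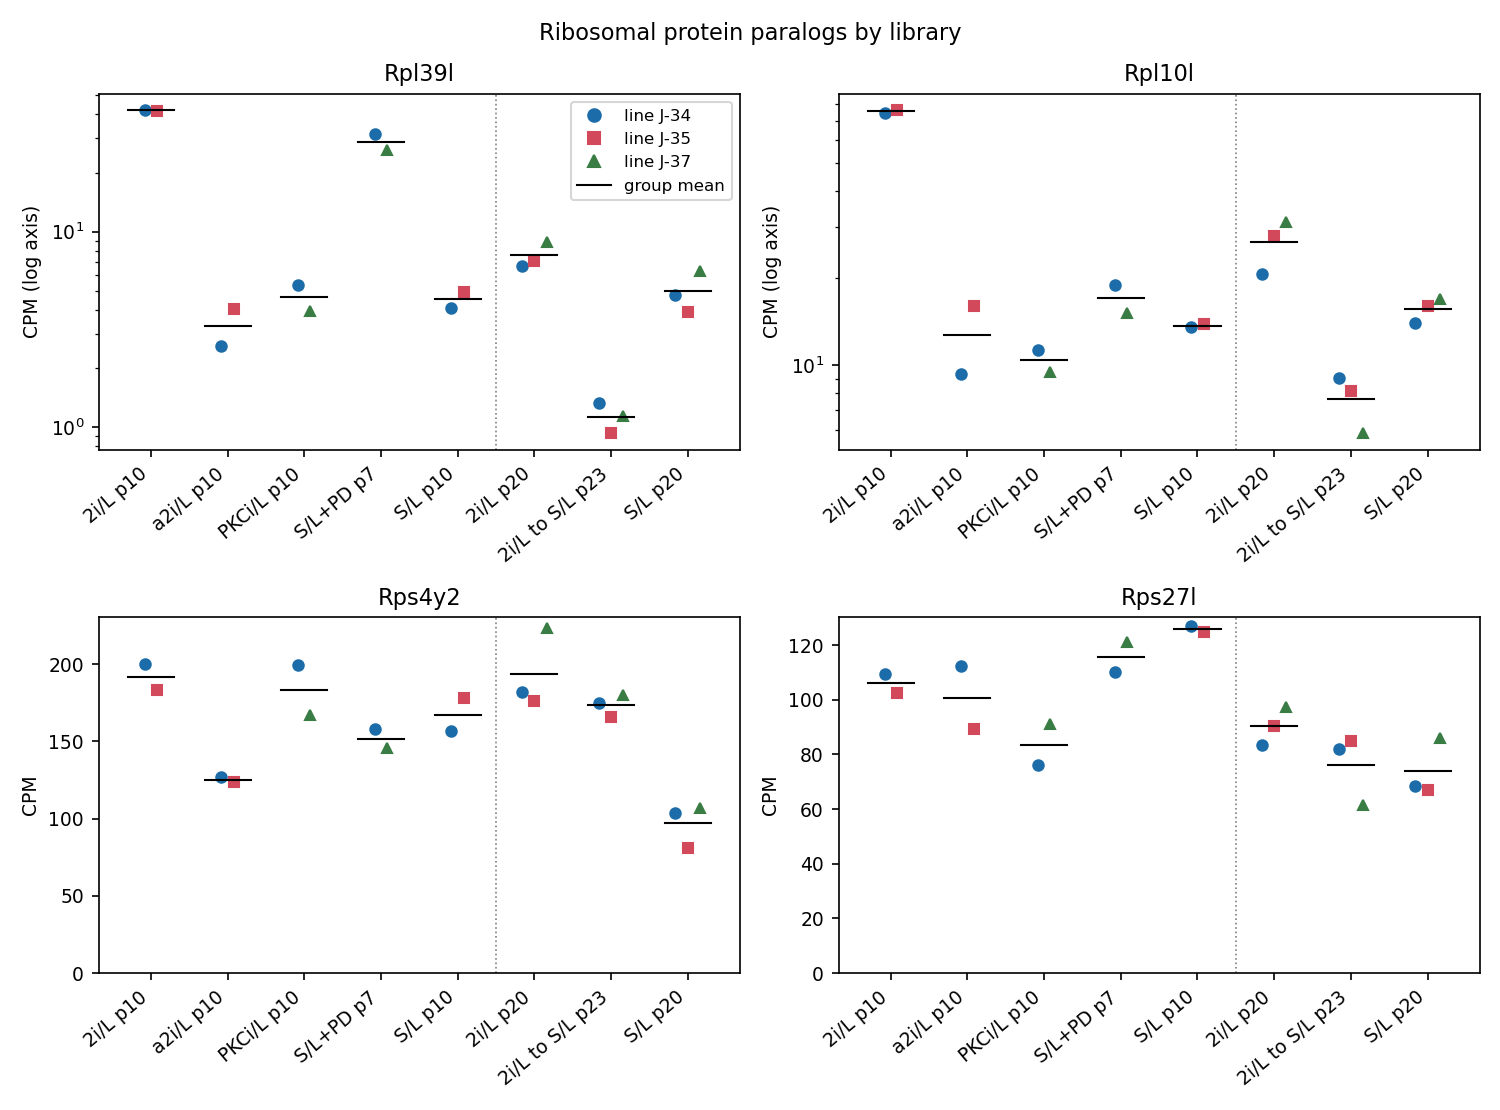
CPM of Rpl39l and Rpl10l (log axes) and of Rps4y2 and Rps27l (axes from 0) in each library, by group, with symbols for the lines, a bar at the group mean and a dotted line between the library sets. Rpl39l stands high in 2i/L at passage 10 and S/L+PD and lowest in the return, Rpl10l is highest in 2i/L at passage 10, and Rps4y2 is lowest in S/L at passage 20.

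Beyond these paralogs the ribosomal protein genes barely moved in 2i/L at passage 10. On the deposited CPM, 2 of 84 rose, Rpl39l and Rpl10l, and 0 fell, against 22.7% and 17.5% of all genes, and 2 genes had an unadjusted limma p under 0.05. The median of the 84 was -0.04, against 0.04 for all genes (log2 fold changes). After TMM scaling 3 rose and 6 fell, against 26% and 23.4% of all genes, with 1 fall without J-35 S/L or either 2i/L library and 5 rises without J-35 S/L. Rplp0 of the ribosomal stalk, for example, had 816.5 and 816.9 CPM in 2i/L, against 841.6 and 995.1 CPM in S/L. Its groups did not overlap, yet its log2 fold change of -0.16 was not called (limma adjusted p = 0.462).

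S/L+PD gave a like picture with 1 called gene. Rpl39l rose and 0 genes fell, against 16.4% and 19.3% of all genes, and 5 genes had an unadjusted limma p under 0.05. The median was -0.03 beside -0.06 for all genes. With cell line as a block 2 genes fell. After TMM scaling 4 rose and 4 fell, against 23.4% and 21.3% of all genes, and 3 rose and 8 fell with scaling and the line block together. Each library moved the scaled counts: 8 rises and 1 fall were called without J-34 S/L+PD, 1 and 7 without J-37 S/L+PD, 1 and 2 without J-34 S/L, and 7 and 0 without J-35 S/L. Rpl5, a partner of 5S rRNA, was among the 4 scaled falls (-0.25 ± 0.09, limma adjusted p = 0.0367).

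In a2i/L the deposited CPM gave 0 rises and 1 fall over S/L, against 10.7% and 17.3% of all genes, with 5 genes at an unadjusted limma p under 0.05. The fall was Rps4y2, at 126.9 and 123.7 CPM in a2i/L against 156.6 and 178.1 CPM in S/L (-0.41 ± 0.15, limma adjusted p = 0.0397), and the call was lost on leaving out J-35 a2i/L or either S/L library. Scaled by TMM, 10 rose and 1 fell, against 18.7% and 18.2% of all genes, a count of rises that went to 0 without J-34 a2i/L, 1 without J-34 S/L and 17 without J-35 a2i/L. Set against 2i/L, a2i/L had 0 rises and 4 falls, against 11.8% and 23.9%, with 8 genes at an unadjusted p under 0.05. The falls were Rpl39l, Rpl10l, Rps4y2 (-0.61 ± 0.15, limma adjusted p = 0.00168) and Rpl36al, the paralog of Rpl36a (-0.45 ± 0.16, adjusted p = 0.0276). After scaling 34 rose and 4 fell against 2i/L (21.2% and 22.9% of all genes), and the rises went down to 6 without J-34 a2i/L, 11 without J-34 2i/L and 13 without J-35 2i/L.

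PKCi/L had the highest mean sum of ribosomal protein CPM at passage 10, which rested on J-37: in J-34 the sum was 35205 CPM in PKCi/L and 38114 CPM in a2i/L as deposited, and 33578 scaled CPM in PKCi/L and 35623 scaled CPM in a2i/L after TMM scaling. On the deposited CPM 3 genes rose over S/L and 1 fell, against 5.8% and 23.5% of all genes. Among the rises were Rps27 (0.47 ± 0.17, limma adjusted p = 0.0319) and Rps10 (0.42 ± 0.16, adjusted p = 0.0452). Rps27, a zinc-finger protein of the 40S, had 352.8 and 395.6 CPM in PKCi/L, against 241.4 and 302.5 CPM in S/L, without overlap. Neither was called without J-34 S/L or without J-37 PKCi/L, nor with cell line as a block (adjusted p 0.0997 for Rps27 and 0.181 for Rps10), and Rps10 was also lost without J-35 S/L (0.0963). The fall was Rps27l, the paralog of Rps27 and a known p53 target, at 76.0 and 91.1 CPM in PKCi/L against 127.0 and 124.9 CPM in S/L (-0.60 ± 0.16, limma adjusted p = 0.00401, lost at 0.0773 without J-34 PKCi/L). The paralog's CPM were thus 21.5% and 23% of its parent's in PKCi/L, against 52.6% and 41.3% in S/L.

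TMM scaling raised these counts. In PKCi/L over S/L 39 of 84 rose and 1 fell, against 18% and 18.6% of all genes, 20 of 51 60S and 19 of 33 40S genes. The count went to 11 without J-34 S/L and 13 without J-37 PKCi/L. Against 2i/L at passage 10, 4 rose and 3 fell on the deposited CPM (11.5% and 33.2% of all genes), and 62 rose and 3 fell after scaling (26% and 27.4%), with 34 rises without J-37 PKCi/L. Without that library the deposited falls became 5. The 4 were Rps27 (0.51 ± 0.17, limma adjusted p = 0.0126), Rps26 (0.50 ± 0.16, adjusted p = 0.0111), Rps7 (0.43 ± 0.16, adjusted p = 0.0222) and Rpl10 (0.39 ± 0.15, adjusted p = 0.0345), and 0 were called without J-34 2i/L, J-35 2i/L or J-37 PKCi/L. With the line block 2 of them remained, since Rps7 (adjusted p = 0.0891) and Rpl10 (0.0778) were lost. Rpl22l1, the paralog of Rpl22, fell beside Rpl39l and Rpl10l, with 46.5 and 49.1 CPM in PKCi/L against 74.0 and 72.2 CPM in 2i/L (-0.61 ± 0.17, limma adjusted p = 0.00391). The comparisons with S/L and with 2i/L share the PKCi/L libraries.

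**Figure D4:**
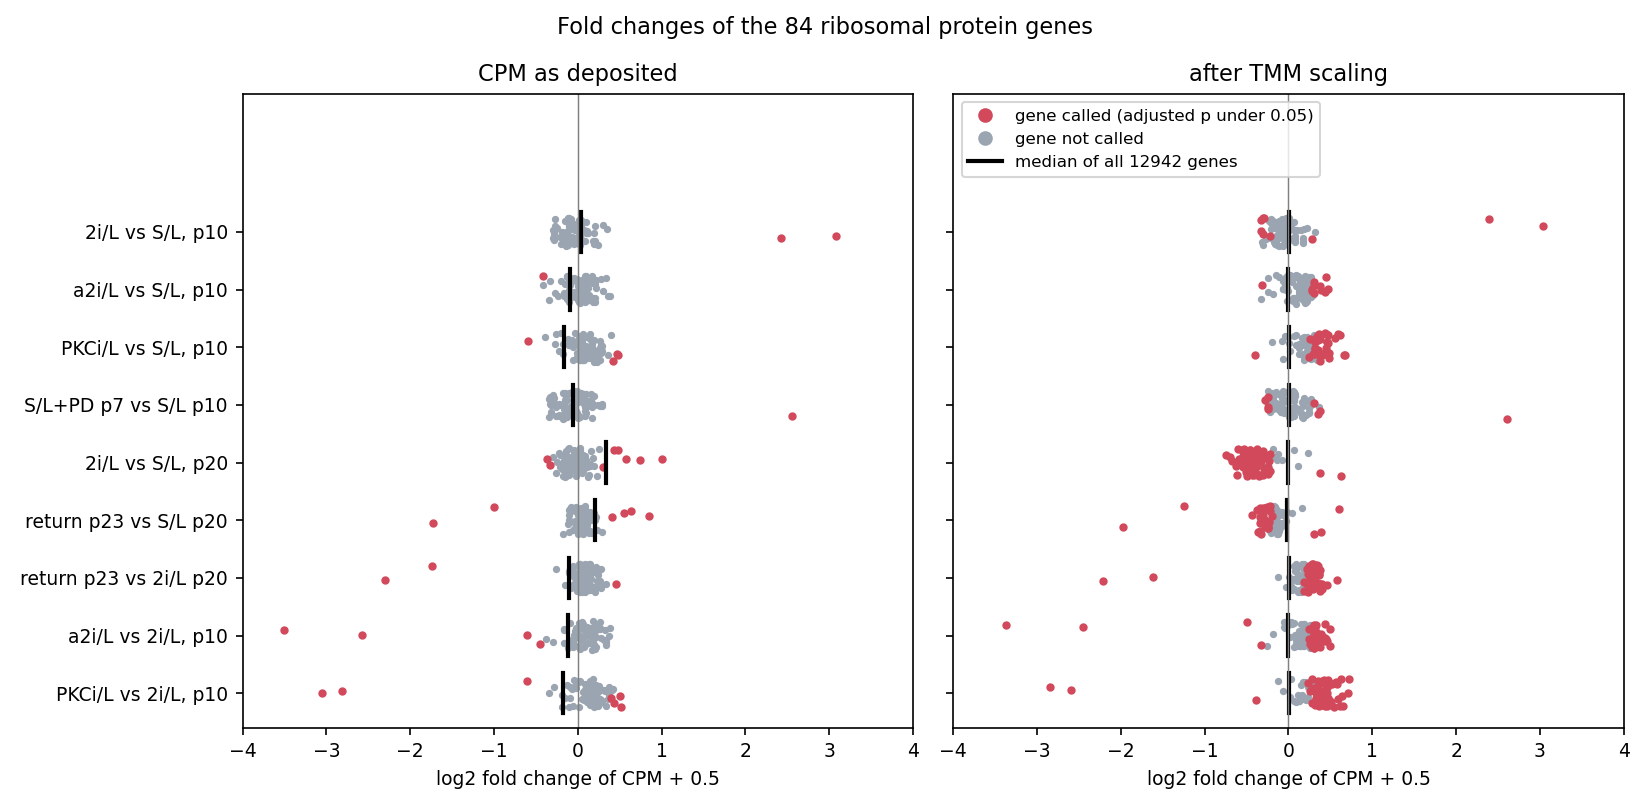
Log2 fold change of each of the 84 genes in 9 comparisons, on CPM as deposited (left) and after TMM scaling (right), with called genes in red and the median of all 12942 genes as a black bar. At passage 20 the median of all genes lies right of the ribosomal protein genes in 2i/L over S/L on the deposited CPM, and after scaling 73 of the 84 are called lower.

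At passage 20 the reading of 2i/L against S/L rested on the scaling. On the deposited CPM 6 genes rose and 2 fell, against 50% and 12.3% of all genes, and the median of the 84 was -0.04 while that of all genes was 0.33. After TMM scaling, which brought the median of all genes to -0.01, 2 rose and 73 fell (a median of -0.41), against 32.3% and 32.1% of all genes. The falls took in 42 of 51 60S and 31 of 33 40S genes, and none of the alternatives that left out a library brought them below 65. Scaling to the sum of the genes listed gave 47 falls. By TMM, then, the mRNAs of most ribosomal protein genes were called lower, by the sum of the genes listed fewer were, and as deposited most were not called.

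Members of both subunits were among the scaled falls. Rpl3, at the peptidyl-transferase centre, had 428.6, 402.0 and 443.1 CPM in 2i/L, against 528.2, 420.2 and 551.6 CPM in S/L. These overlap as deposited, and the fold change was -0.23 (limma adjusted p = 0.134), against -0.60 ± 0.08 after scaling (adjusted p = 2.58e-06). For the stalk protein Rplp0 the scaled fall was -0.53 ± 0.08 (limma adjusted p = 1.55e-05), for Rpsa, the laminin receptor precursor of the 40S, -0.57 ± 0.10, and for the 5S rRNA partners Rpl5 and Rpl11 -0.51 ± 0.08 and -0.50 ± 0.10. Rps6, the substrate of S6 kinase, fell by 0.41 ± 0.08 and Rps19 by 0.37 ± 0.09 after scaling (limma adjusted p = 0.000866), while as deposited their fold changes were -0.04 and 0.00 and not called. Rpl35 fell most, by 0.74 ± 0.13 scaled and 0.37 ± 0.15 as deposited (limma adjusted p = 0.0341), followed by Rps12, by 0.70 ± 0.09 and 0.33 ± 0.14 (adjusted p = 0.0394). The 2 deposited falls became 24 without J-35 S/L, 1 without J-34 S/L, and 0 without J-37 S/L, J-34 2i/L or J-35 2i/L. Rpl39, Rpl7, Rpl15, Rpl37a and 5 other genes were not called after scaling.

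The rises of 2i/L at passage 20 on the deposited CPM were Rps4y2, Rpl10l, Rpl39l, Rpl13, Rpl32 and, smallest, Rps27l (0.30 ± 0.13, limma adjusted p = 0.047). Rps27l had 83.5, 90.5 and 97.2 CPM in 2i/L, against 68.6, 67.0 and 86.2 CPM in S/L, which overlap, and its scaled change was -0.08 (limma adjusted p = 0.559). Rps4y2 is listed by RefSeq as Rps4l, a transcribed pseudogene in a single exon on chromosome 6, so its reads and those of its parent Rps4x may not be separable. It had 182.2, 176.1 and 223.5 CPM in 2i/L, 175.2, 166.0 and 180.1 CPM in the return and 103.6, 80.8 and 106.9 CPM in S/L at passage 20. S/L lay below both without overlap. The rise was 1.0 ± 0.12 in 2i/L (limma adjusted p = 1.56e-08) and 0.85 ± 0.12 in the return (adjusted p = 1.33e-06), and both held after scaling at 0.63 ± 0.08 and 0.60 ± 0.08. At passage 10 the 2i/L effect was 0.20 and not called, and the interaction of 0.80 ± 0.20 was (limma adjusted p = 0.00166). Relative to Rps4x, its CPM made 38.5%, 37.5% and 43% in 2i/L at passage 20, 30.1%, 32.2% and 38.7% in the return, and 19.6% to 20.7% in S/L, close to the 17.8% and 18.6% of S/L at passage 10.

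After their return to S/L the cells stood between the media on the TMM scale and, by their medians, slightly above both as deposited. Relative to S/L at passage 20, 4 genes rose and 2 fell on the deposited CPM, against 32.7% and 6.63% of all genes, with a median of 0.06 beside 0.20 for all genes. Scaled by TMM, 3 rose and 30 fell (a median of -0.19), against 21.5% and 22.8% of all genes. Leaving out J-37 S/L took the scaled falls to 14, and J-37 of the return to 19, and without J-37 S/L the deposited rises became 8. Against 2i/L at passage 20, 1 gene rose and 2 fell as deposited (15.8% and 30.3% of all genes; a median of 0.10), the rise being Rpl35, at 75.0, 57.4 and 57.5 CPM in the return against 46.2, 37.5 and 55.2 CPM in 2i/L (0.45 ± 0.15, limma adjusted p = 0.0135). That call went without J-35 2i/L or J-34 of the return, and 2 rises were called without J-37 2i/L, without J-37 of the return or with the line block. Scaled, 46 rose and 2 fell against 2i/L (27.3% and 27.7% of all genes), with 30 rises without J-35 2i/L. The falls were Rpl39l and Rpl10l in each case. Both comparisons use the same return libraries.

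Rps4y2, Rpl32 and Rpl13, which rose in the return over S/L, share a feature outside the selection, found after their values were seen. By RefSeq matched on symbols, Rps4y2 and Rpl32 are annotated on chromosome 6 and Rpl13 on chromosome 8. Rpl32, a 60S protein, had 778.8, 661.1 and 608.4 CPM in the return and 566.4, 538.7 and 676.6 CPM in 2i/L, against 444.9, 361.9 and 521.3 CPM in S/L at passage 20. Rpl13, also of the 60S, had 503.1, 466.1 and 417.4 CPM in the return and 428.6, 415.0 and 476.4 CPM in 2i/L, against 309.4, 276.8 and 365.7 CPM in S/L. For both genes S/L did not overlap either group. Rpl32 rose by 0.63 ± 0.14 in the return (limma adjusted p = 0.000581) and Rpl13 by 0.55 ± 0.13 (adjusted p = 0.00116), and these held after scaling at 0.39 and 0.30. In 2i/L over S/L the scaled changes of Rpl32 (0.06) and Rpl13 (0.11) were not called, where the 84 genes had a median of -0.41.

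Genes of these chromosomes that encode no ribosomal protein showed the same displacement. Among genes that average 10 CPM or more, the scaled median in 2i/L over S/L at passage 20 was 0.42 for 289 genes on chromosome 6 and 0.41 for 353 on chromosome 8, against -0.07 for 5399 elsewhere. In the return over S/L it was 0.46, 0.49 and -0.06. The remaining chromosomes were pooled and not looked at one by one. Relative to each gene's mean over all libraries, chromosome 6 stood at 0.20 to 0.35 in the 3 libraries of 2i/L at passage 20 and 0.24 to 0.30 in the return, against -0.20 to -0.18 in S/L at passage 20, and at -0.15 to -0.04 in the early set. Chromosome 8 stood at 0.25 to 0.28 in 2i/L, 0.29 to 0.36 in the return, -0.19 to -0.09 in S/L and -0.17 to -0.09 in the early set. The part of this in the rises of Rps4y2, Rpl32 and Rpl13 was not tested.

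**Figure D5:**
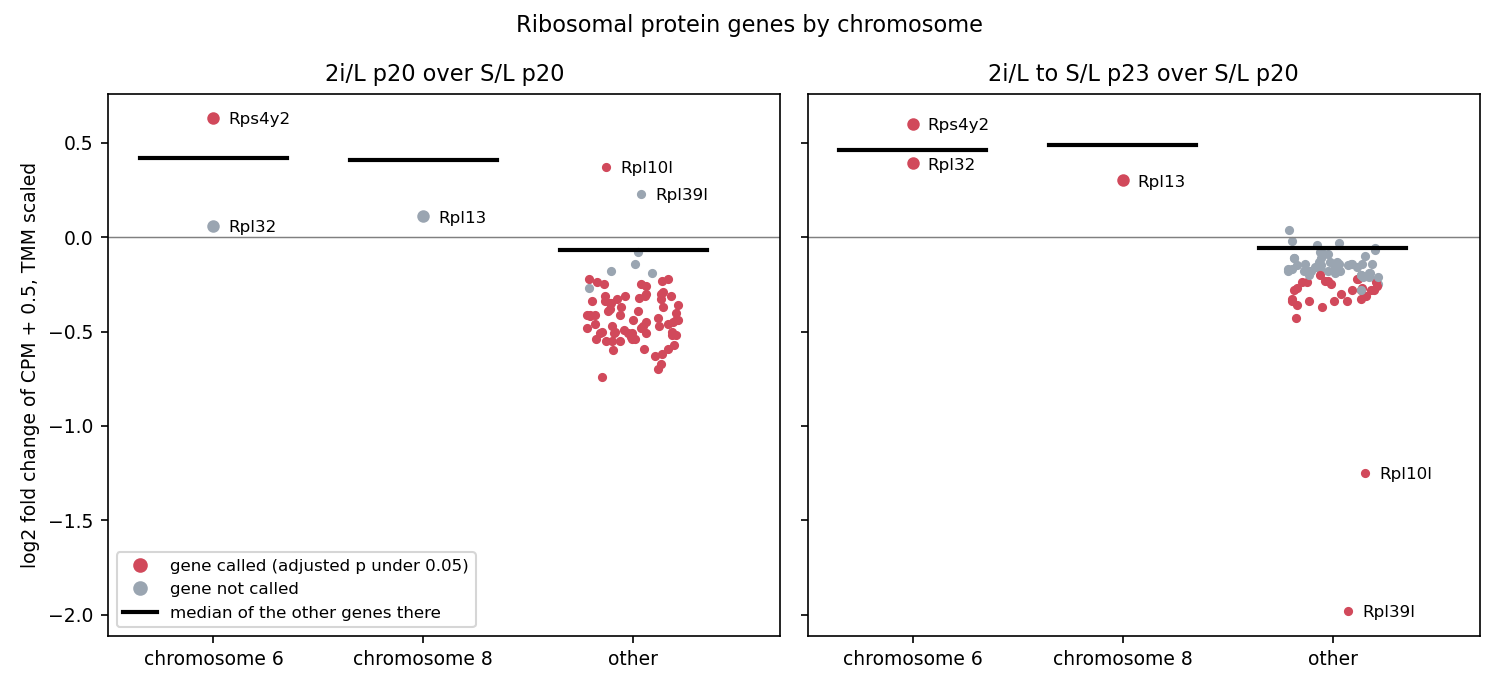
Log2 fold change after TMM scaling of 83 of the 84 genes by chromosome, 2i/L at passage 20 over S/L (left) and the return over S/L (right), called genes in red, with black bars at the median of the genes of that chromosome that encode no ribosomal protein. Rps4y2, Rpl32 and Rpl13 lie above nearly all others, as do those chromosomes' medians of 0.41 to 0.49.

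The difference between the 2i/L effects at passages 20 and 10 was tested for all genes. On the deposited CPM it was called higher for 2 ribosomal protein genes and lower for 2, against 29.9% and 7.1% of all genes. The lower ones were Rpl39l and Rpl10l, the higher ones Rps4y2 and Rps27l (0.54 ± 0.21, limma adjusted p = 0.0357). Rps27l had 109.5 and 102.5 CPM in 2i/L at passage 10 against 127.0 and 124.9 CPM in S/L, the reverse of its order at passage 20. The 2 lower calls became 4 without J-35 S/L at passage 20, and 1 higher call was left without any of 8 libraries. After scaling 1 was higher and 35 lower, against 19.1% and 20.5% of all genes. Those 35 became 10 without J-34 S/L at passage 10 and 18 without J-34 2i/L at passage 10, and 19 without J-35 2i/L at either passage or J-37 S/L at passage 20. Among the 35 were Rpl3 (-0.60 ± 0.13, limma adjusted p = 0.00113), Rps12 (-0.69 ± 0.15, adjusted p = 0.000892) and Rpl22l1 (-0.82 ± 0.17, adjusted p = 0.000791).

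Ribosomal proteins whose symbols the selection does not match were measured too. Fau, whose product is a fusion of a ubiquitin-like protein and a 40S protein, fell by 0.42 ± 0.12 in 2i/L over S/L at passage 20 after scaling (limma adjusted p = 0.00398). Gnb2l1, the scaffold protein also known as Rack1, fell by 0.45 ± 0.10 there (limma adjusted p = 0.000395). Of 17 translation factors and related mRNAs with a pyrimidine start, 0 rose and 15 fell after scaling in that comparison (a median of -0.37), among them the elongation factor subunit Eef1b2 (-0.71, limma adjusted p = 6.94e-07), the initiation factor subunit Eif3l (-0.71, adjusted p = 5.38e-08) and Tpt1 (-0.59, adjusted p = 2.26e-07). As deposited, 0 rose and 2 fell. Of all genes, 32.3% rose and 32.1% fell there after scaling, and 50% and 12.3% as deposited. In the return over 2i/L 10 of the 17 rose and 0 fell after scaling, with Tpt1 at 0.47 and the initiation factor Eif4b at 0.44, while as deposited 2 rose and 0 fell. The shares of all genes were 27.3% and 27.7% after scaling, and 15.8% and 30.3% as deposited. In PKCi/L over 2i/L 14 rose and 1 fell after scaling (26% and 27.4% of all genes), and 2 rose and 1 fell as deposited (11.5% and 33.2%).

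Genes that build the ribosome gave other counts than its proteins in some media. Of 27 ribosome biogenesis genes, 15 fell and 0 rose in S/L+PD over S/L with or without scaling (deposited median -0.44), where 1 ribosomal protein gene rose and 0 fell on the deposited CPM. Of all genes, 19.3% fell and 16.4% rose there as deposited, and 21.3% and 23.4% after scaling. The largest falls of biogenesis genes by adjusted p were Mybbp1a (-0.82 ± 0.15, limma adjusted p = 4.22e-05), the small-subunit processing factor Rrp12 (-0.74, adjusted p = 0.000245) and Wdr12 of the 60S-maturing PeBoW complex (-0.66, adjusted p = 0.00116). In a2i/L over S/L 11 fell and 1 rose as deposited (17.3% and 10.7% of all genes), the rise being Dkc1, the pseudouridine synthase dyskerin. In PKCi/L over 2i/L 23 of 27 rose and 0 fell after scaling, against 26% and 27.4% of all genes (5 and 0 as deposited, against 11.5% and 33.2%). In 2i/L over S/L at passage 20, 4 rose and 17 fell after scaling, against 32.3% and 32.1% of all genes (9 and 3 as deposited, against 50% and 12.3%). The rRNA methyltransferase homologue Nop2, on chromosome 6, rose by 0.59 and Nip7, on chromosome 8, by 0.53 after scaling, while Wdr12 fell by 0.92 and Nop58 by 0.84. Of 11 genes of mTOR signalling, 5 fell and 0 rose in S/L+PD as deposited, against 19.3% and 16.4% of all genes. Among the falls were Larp1 (-0.76, limma adjusted p = 0.000199) and Mtor (-0.57, adjusted p = 0.00293). Whether these lists differ from the ribosomal protein genes was not tested.

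Among all other genes, those whose log2 profile over the 8 group means was most like the median ribosomal protein gene were Mif (Pearson r = 0.983), Pih1d1 (0.982), Gm10119 (0.977), the elongation factor Eef2 (0.975) and Gnb2l1 (0.972), given as a description. The points share their library set, which alone separates high from low groups on the deposited CPM, and after TMM scaling the same correlations were 0.80 to 0.95.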

How the data were processed

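RNA of 19 libraries was depleted of ribosomal RNA and made into strand-marked paired-end libraries (Illumina HiSeq 2000), per the labels' protocols. Tools named by the submitters' processing notes are edgeR 3.8.6, HTSeq 0.6.0, STAR 2.3.0, SAMtools 0.1.18.0 and Picard 1.100, and builds mm9 and NCBIM37. The table deposited by the authors holds CPM (reads per gene relative to a library total), rounded to 2 decimals. How multi-mapping reads were counted is not given in the sources used here, and 21 of the genes have a pseudogene row of their own in the table.

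On log2(CPM + 0.5), limma 3.58.1 (trend, in R 4.3.3) was run as 1 fit over 8 groups with 11 residual degrees of freedom. Benjamini-Hochberg adjustment ran over all 12942 genes, and a gene was called at an adjusted p under 0.05. A filter of 1 CPM in 2 libraries removed no gene. The fit was tested on simulated data. TMM trimmed 30% of log ratios and 5% of levels. RefSeq annotation was matched by symbol for all 84 genes, 2 through synonyms.

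Members and lists were chosen with earlier results of these data known. Named genes are the 5 largest called rises and falls per comparison as deposited, a panel of 14 genes, the measured paralogs (Rpl3l and Rpl26l1 are not listed), the 5 most and 5 least variable genes, the 5 most similar other genes and the best-called genes of 4 translation lists. Some genes that this rule names are not reported here. Libraries of the same cell line pair across groups, and were fitted with line as a block in an alternative. Deviations from group means correlated at a median of 0.107 for the same line (-0.072 to 0.263 in the groups of 3) and -0.0886 for different lines. Nothing beyond the line names says that libraries come from separate cultures, so p-values measure the spread between these samples.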

Additional observations from a re-analysis of the deposited data

Results flagged for a closer look

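In 4 genes the effect of 2i/L over S/L differed between passage 20 and passage 10 by a test of that difference on the CPM as deposited. For Rpl39l the difference was -2.51 (log2; limma adjusted p = 1.07e-08), with effects of 0.57 at passage 20 and 3.08 at passage 10. For Rpl10l it was -1.69 (adjusted p = 5.33e-06, limma), with 0.74 and 2.42. Both held after TMM scaling, at -2.81 and -2.02. Rps4y2, on chromosome 6, differed by 0.80 (limma adjusted p = 0.00166; 0.45 after scaling, adjusted p = 0.00768), with 1.0 at passage 20 and 0.20 at passage 10. Rps27l differed by 0.54 (limma adjusted p = 0.0357), with 0.30 and -0.25, and was not called after scaling (0.20, adjusted p = 0.381). The passages also differ in library set, and the part of that in the differences was not tested.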

How the results depend on the processing

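Counts of called ribosomal protein genes depended on the scaling between libraries, and the cause was not tested. Relative to TMM scaling, leaving the ribosomal protein genes out of the factors gave nearly the same counts. In 2i/L over S/L at passage 10, 6 were lower by TMM and 6 with the genes left out, and 8 when scaled to the sum of listed genes. At passage 20 the counts higher and lower were 2 and 73 by TMM, 1 and 73 with the genes left out, and 47 lower by the sum. S/L+PD gave 4 and 4 both ways, and 2 and 5 by the sum. Higher counts for TMM, TMM with the genes left out and the sum were 10, 10 and 3 in a2i/L (2 lower by the sum) and 39, 39 and 16 in PKCi/L over S/L. Over 2i/L they were 34, 35 and 13 in a2i/L and 62, 62 and 37 in PKCi/L. The return had 30, 31 and 9 lower than S/L and 46, 46 and 20 higher than 2i/L. For the difference of passages they were 1 higher each time, and 35, 35 and 6 lower. Mean summed levels by the sum alone were 32266 CPM in a2i/L, 34480 in PKCi/L, 24106 in 2i/L at passage 20 and 26654 in the return, and for the 3 scalings 27762, 27747 and 28260 CPM in 2i/L at passage 10, 30246, 30252 and 30308 in S/L+PD, 29633, 29648 and 30718 in S/L at passage 10, and 29394, 29409 and 28251 in S/L at passage 20.

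Line as a replicate block gave 2 lower in S/L+PD, 0 higher in PKCi/L over S/L, and 2 higher in the return over 2i/L and in PKCi/L over 2i/L. With the generation label's lines, this block moved only the return over 2i/L, to 2. Replicate block and TMM together gave, higher and lower, 4 and 8 in 2i/L at passage 10, 2 and 73 at passage 20, 3 and 8 in S/L+PD, 10 higher in a2i/L, 27 higher in PKCi/L over S/L, 34 lower in the return over S/L and 47 higher over 2i/L, 37 and 55 higher in a2i/L and PKCi/L over 2i/L, and 1 and 41 for the difference. Fitting the library sets apart, an alternative added after seeing the data, gave 1 lower in 2i/L at each passage, 5 lower in S/L+PD, 2 and 3 in a2i/L, 5 higher in PKCi/L, and 3 and 10 higher in a2i/L and PKCi/L over 2i/L.

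With each library left out in turn, counts as deposited ranged, higher then lower, over 2 to 3 and 0 to 0 in 2i/L at passage 10, 4 to 9 and 0 to 24 at passage 20, 1 to 1 and 0 to 1 in S/L+PD, 0 to 0 and 0 to 1 in a2i/L, 0 to 4 and 0 to 1 in PKCi/L, 3 to 8 and 2 to 3 in the return over S/L, 0 to 2 and 2 to 2 over 2i/L, 0 to 0 and 3 to 4 in a2i/L over 2i/L, 0 to 3 and 3 to 5 in PKCi/L over 2i/L, and 1 to 3 and 2 to 4 for the difference. By TMM, also added later, they ranged over 2 to 5 and 1 to 7, 1 to 2 and 65 to 75, 1 to 8 and 0 to 7, 0 to 17 and 0 to 2, 11 to 49 and 0 to 1, 2 to 3 and 14 to 32, 30 to 40 and 2 to 2, 6 to 38 and 3 to 4, 34 to 65 and 2 to 3, and 0 to 1 and 10 to 37, in the same order. Where this left 1 library in a group, that library was assumed to vary like the other groups.

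Of the 84 genes, 5 had a positive change by TMM and 35 as deposited in 2i/L over S/L at passage 20, 5 and 60 in the return over S/L, and 4 and 46 for the difference. Among the genes named by rule and called under either setting, signs turned only where TMM was used. In 2i/L over S/L at passage 20 these were Rpl36a (-0.31, and -0.32 with the genes left out), Rps19 (-0.37 and -0.38), Rpl7l1 (-0.22), Rpl36al (-0.22) and Rps27l (-0.08), in the return over S/L Rplp2 (-0.24), Rpl5 (-0.22) and Rps19 (-0.24), and for the difference Rplp0 (-0.34), Rps6 (-0.34) and Rps27a (-0.35). With the block added, Rps6 (-0.20) in the return and Rpl36a (-0.33) and Rps19 (-0.33) for the difference turned too. Pseudocounts of 0.1 and 1, no filter, and a mean of at least 5 CPM moved no count by over 1.5 times. On the CPM as deposited, Rpl39l and Rpl10l kept every call named here with any 1 library left out. The depth of the return libraries, where Rpl39l is near 1 CPM, could not be read from the values.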
